A study of Saccharomyces cerevisiae with 21 samples.

Results

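Mga2ΔTM is a version of the yeast transcription factor Mga2 that lacks the membrane anchor. The RNA sequencing data described here compare mga2Δ cells that expressed Mga2ΔTM from a plasmid with mga2Δ cells that carried no plasmid, in 3 libraries each. These 6 of the 21 libraries of the study were chosen by their titles. The Mga2ΔTM cells carried pRS316-GPDprom-Mga2deltaTM-mCh, a URA3-marked plasmid with the strong GPD promoter and an mCherry tag, and grew in SDC-URA, a synthetic medium without uracil. The mga2Δ cells grew in SDC+All, in which uracil is present. All strains of the study derive from BY4741, a MATa laboratory strain that cannot make its own uracil. Other strains served as points of reference: mga2Δ cells with the full-length MGA2 on the same kind of plasmid (pRS316-GPDprom-Mga2-mCh, SDC-URA, called mga2Δ + MGA2), ino4Δ cells with and without the Mga2ΔTM plasmid (SDC-URA and SDC+All), and wild-type BY4741 (SDC+All, no plasmid). Wild-type cells with an OLE1 plasmid in SDC-URA are given beside some values. No library with an empty plasmid was analysed here, so Mga2ΔTM, the plasmid and the medium without uracil cannot be told apart in the comparison with mga2Δ.

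Mga2 and its relative Spt23 are made as inactive precursors that sit in the membrane of the endoplasmic reticulum (ER). A transmembrane helix of Mga2 senses how tightly the lipids pack. Saturated acyl chains favour release of the soluble part of the protein, a step that needs Rsp5-dependent ubiquitin and the proteasome. In its soluble form Mga2 activates OLE1, which encodes the only fatty acid desaturase of this yeast, through a promoter sequence known as the low oxygen response element. Without the anchor, Mga2ΔTM skips this control. Loss of Mga2 lowers Ole1 activity and makes membrane lipids more saturated, a state known to engage the unfolded protein response of the ER.

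Promoter sequence is shown first for some genes on which the results turn, chosen because sites of known regulators can be read in it. Each run is from the R64 genome (RefSeq), 5′ to 3′ on the strand of the gene, and lies upstream of its start codon. OLE1 (chrVII:398248-398327) and SPO7 (chrI:135684-135763), which encodes a subunit of the phosphatase complex that activates the diacylglycerol-producing enzyme Pah1, have the low oxygen response element ACTCAACAA in capitals. KAR2 (chrX:381127-381206), the ER Hsp70 chaperone, has the core CAGCGTG of the unfolded protein response element, bound by Hac1. FIT2 (chrXV:1059186-1059410), SIT1 (chrV:27427-27506) and FET3 (chrXIII:388532-388611), genes of iron uptake, have the Aft1 site TGCACCC on either strand. MEP2 (chrXIV:356983-357142), an ammonium permease gene, has the GATAAG of GATA factors. HSP12 (chrVI:106806-107105), a small stress protein gene, has the stress response element AGGGG.
OLE1: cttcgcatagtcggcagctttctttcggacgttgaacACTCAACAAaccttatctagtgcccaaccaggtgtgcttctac
SPO7: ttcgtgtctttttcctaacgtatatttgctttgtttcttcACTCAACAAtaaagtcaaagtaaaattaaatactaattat
KAR2: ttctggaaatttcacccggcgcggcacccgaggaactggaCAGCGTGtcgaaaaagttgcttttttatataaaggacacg
FIT2: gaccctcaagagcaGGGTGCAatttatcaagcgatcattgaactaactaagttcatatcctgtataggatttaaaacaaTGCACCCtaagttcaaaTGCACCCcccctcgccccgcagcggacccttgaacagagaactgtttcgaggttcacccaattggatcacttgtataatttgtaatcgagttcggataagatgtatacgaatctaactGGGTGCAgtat
SIT1: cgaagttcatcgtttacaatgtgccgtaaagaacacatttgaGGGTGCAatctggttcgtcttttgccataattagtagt
FET3: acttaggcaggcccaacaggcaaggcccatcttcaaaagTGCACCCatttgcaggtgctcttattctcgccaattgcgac
MEP2: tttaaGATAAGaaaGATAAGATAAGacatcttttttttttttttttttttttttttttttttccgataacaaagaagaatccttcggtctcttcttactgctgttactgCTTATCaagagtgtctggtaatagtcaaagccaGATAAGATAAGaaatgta
HSP12: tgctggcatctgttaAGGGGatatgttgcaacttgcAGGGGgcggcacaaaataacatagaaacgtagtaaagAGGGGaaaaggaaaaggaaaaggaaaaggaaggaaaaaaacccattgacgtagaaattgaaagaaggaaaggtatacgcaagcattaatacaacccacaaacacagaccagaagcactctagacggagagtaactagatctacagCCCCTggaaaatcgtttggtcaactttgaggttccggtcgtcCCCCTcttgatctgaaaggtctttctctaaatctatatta
Letters of these motifs were counted on both strands in the 500 bases before the start codon of 5684 tested genes. ACTCAACAA occurred in 0.387% of all promoters, in 4 of 336 promoters of genes that were higher in Mga2ΔTM than in mga2Δ cells, and in 0 of 389 promoters of genes that were lower. TGCACCC occurred in 2.38% of all promoters, 7.44% of those of higher genes and 3.86% of those of lower genes. AGGGG occurred in 34.3% of all promoters, 29.8% of those of higher genes and 55.3% of those of lower genes. The heat shock element TTCNNGAANNTTC occurred in 1.53% of all promoters, 1.49% of those of higher genes and 5.4% of those of lower genes. CAGCGTG was found in 2.30% of all promoters, 2.38% of those of higher genes and 3.08% of those of lower genes, and GATAAG in 22.7%, 24.7% and 23.9%. These shares describe letters, not bound sites. Among the other ER folding genes looked up by name, LHS1 also had CAGCGTG, whereas ERO1 and SIL1 did not. MPD1, named below, was not looked up singly. None of these motifs was found for IZH4, IZH2 or YGL039W. Heat shock elements next to each other overlap, and KAR2 has 2 such matches.

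Libraries held 12552418 to 16845900 counts in the 6 libraries compared, and 12552418 to 18372240 in all 21. No labels say whether replicates were separate cultures, so p-values measure the spread between these libraries. MGA2 counts per library were 19155, 18388 and 17037 in Mga2ΔTM cells, against 8, 7 and 10 in mga2Δ cells. URA3, the plasmid marker, had 3396, 3308 and 4032 counts in Mga2ΔTM libraries, against 1, 0 and 0 in mga2Δ libraries. The 6 MATa genes were present in all 6 libraries and summed to 1353 to 1496 CPM in Mga2ΔTM cells and 687 to 982 CPM in mga2Δ cells, and the 4 MATα genes to 24.8 to 28.7 CPM in Mga2ΔTM cells and 20.3 to 23.8 CPM in mga2Δ cells. One library stood apart. Replicate 1 of mga2Δ correlated with the other mga2Δ libraries at 0.989 and 0.990 (Pearson r of log2 CPM across genes), while these correlated with each other at 0.996, and it was the mga2Δ library nearest to Mga2ΔTM cells. Results that rest on it are given with and without it.

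Of 6164 genes tested in edgeR, 347 were higher in Mga2ΔTM than in mga2Δ cells (5.63% of genes tested) and 448 were lower (7.27%). To be called, a gene had to differ by more than 1.5-fold at an adjusted p (Benjamini-Hochberg, over all genes) below 0.05. In 761 of these 795 genes (12.9% of genes tested) the 3 libraries of each strain did not overlap, which was so for 43.0% of all genes tested. More than 4-fold changes were found in 44 higher and 41 lower genes. With no fold minimum, 1013 genes were higher and 1079 lower at an adjusted p below 0.05. For some lists below, counts at an unadjusted p below 0.05 are given. The share over all genes at that threshold is not given here. Tested against 1.5-fold itself as the null value (glmTreat in edgeR), 157 were higher and 147 lower. Of the genes described below as changed, ARE1, ATG8, AUR1, CAT2, COB, DOA1, ELO3, ERG10, IDH2, INO1, LAC1, NEM1, PDC5, PDR5, SPO7, UBC7, UBC8, UBI4, URA1 and URH1 were not called in that test. Without mga2Δ replicate 1, 488 genes were higher, of which 309 were among the 347, and 564 were lower, of which 423 were among the 448. Levels are given as CPM, a count scaled to a fixed library size by TMM (trimmed mean of M values), in the order of the replicates. They are shares of a library, so fewer cells with a transcript and less transcript per cell cannot be told apart.

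**Figure D1:**
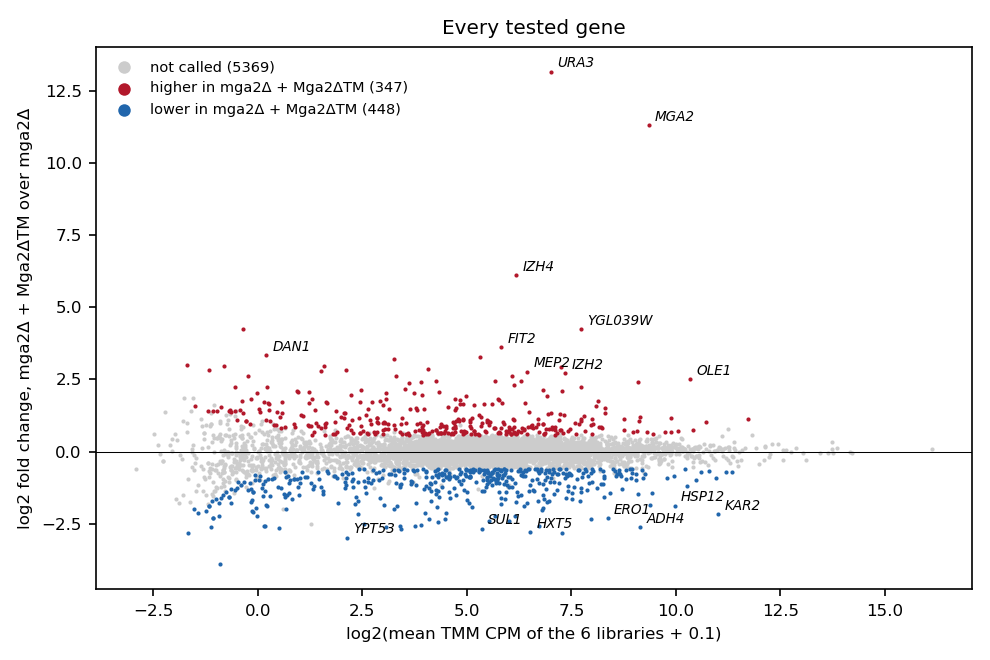
Each point is 1 of 6164 tested genes. The x axis gives the mean level over the 6 libraries on a log2 scale and the y axis the log2 fold change of Mga2ΔTM over mga2Δ cells. Red points are the 347 higher genes and blue points the 448 lower genes, and most of the labelled genes sit far from 0.

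The desaturase gene OLE1 and some genes of fatty acid elongation were higher with Mga2ΔTM. Of 13 genes of fatty acid synthesis, desaturation and elongation, 4 rose, none fell, and the median log2 fold change was 0.51, beside 0.001 over all genes tested. OLE1 mRNA (YGL055W, chrVII:398628-400160) was 2199, 2075 and 2382 CPM in Mga2ΔTM cells, against 452, 372 and 337 CPM in mga2Δ cells. The groups lay far apart, at a log2 fold change of 2.52 ± 0.19 (SE) and an adjusted p of 1.1e-08. Wild-type cells had 671, 523 and 878 CPM, between the 2 strains, so that OLE1 was higher in Mga2ΔTM than in wild-type cells (log2 fold change 1.68 ± 0.18) and lower in mga2Δ than in wild-type cells (-0.84 ± 0.18). ELO1, which encodes the elongase of medium-chain fatty acids, was at 228, 271 and 255 CPM in Mga2ΔTM cells, against 58.8, 56.3 and 60.7 CPM in mga2Δ cells (log2 fold change 2.10 ± 0.12). PHS1, the dehydratase of very long chain elongation, rose by 1.29 ± 0.07 on the log2 scale, and ELO3, an elongase of very long chains, by 0.82 ± 0.11. ACB1, the acyl-CoA binding protein, missed the fold minimum at 0.52 ± 0.09. Without mga2Δ replicate 1, 6 of the 13 genes were higher.

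Some genes that activate acyl chains or attach them to the glycerol backbone were higher too. Of 13 acyl-CoA synthetases and acyltransferases of phosphatidic acid formation, 4 rose and none fell, with a median log2 fold change of 0.26. ALE1, a lysophospholipid acyltransferase, reached 424, 422 and 459 CPM in Mga2ΔTM cells, against 129, 123 and 137 CPM in mga2Δ cells. Its log2 fold change was 1.74 ± 0.06, with an adjusted p of 1.7e-13. The acyl-CoA synthetase gene FAA4 was at 775, 725 and 848 CPM in Mga2ΔTM cells, against 409, 299.6 and 303 CPM in mga2Δ cells (1.22 ± 0.14). SLC1, which acylates lysophosphatidic acid, rose by 0.96 ± 0.10 on the log2 scale, and SCT1, which acylates glycerol-3-phosphate, rose by 0.76 ± 0.06. ICT1, another lysophosphatidic acid acyltransferase, was below the fold minimum at 0.51 ± 0.09. The acyl-CoA synthetase gene FAA1 missed it in the other direction (-0.50 ± 0.09). FAA1 was at 284, 294 and 280 CPM in Mga2ΔTM cells, against 369, 421 and 424 CPM in mga2Δ cells. FAA2 (0.09 ± 0.12), FAA3 (0.26 ± 0.11) and FAT1 (0.03 ± 0.07) were not called, so FAA4 was the only acyl-CoA synthetase gene of this list that rose. 

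Sterol synthesis changed at a few early steps. Of 27 genes, 4 rose and none fell, and the median log2 fold change was 0.11. MVD1, which makes isopentenyl diphosphate from mevalonate diphosphate, had 489.6, 443 and 476 CPM in Mga2ΔTM cells, against 179, 159 and 159.7 CPM in mga2Δ cells, and the groups did not overlap (1.5 ± 0.08, adjusted p 4.3e-11). HMG2, an HMG-CoA reductase, rose by 1.05 ± 0.07, ERG13, the HMG-CoA synthase, by 1.05 ± 0.08, and ERG10, the acetoacetyl-CoA thiolase, by 0.71 ± 0.06 on the log2 scale. All 4 act in the mevalonate part of the pathway. IDI1, the isomerase that follows MVD1, was at 0.53 ± 0.07 and missed the fold minimum.

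The IZH genes, a family of membrane proteins related to adiponectin receptors and tied to zinc homeostasis, had a median log2 fold change of 2.26, with 3 of 4 higher. IZH4 (YOL101C, chrXV:126982-127920) was at 146, 132 and 149 CPM in Mga2ΔTM cells, against 2.22, 2.40 and 1.61 CPM in mga2Δ cells and 10.6, 9.20 and 14.8 CPM in wild-type cells. Its log2 fold change of 6.10 ± 0.21 over mga2Δ (adjusted p 1.9e-13) was exceeded among the genes named here only by MGA2 itself and the plasmid marker URA3. IZH2 had 271, 259 and 318 CPM in Mga2ΔTM cells, against 46.2, 42.2 and 41.7 CPM in mga2Δ cells (2.70 ± 0.14). IZH1 had 76.3, 76.4 and 95.6 CPM in Mga2ΔTM cells, against 29.0, 20.9 and 21.2 CPM in mga2Δ cells (1.80 ± 0.16), and 81.4, 63.6 and 97.2 CPM in wild-type cells, a range that overlapped that of Mga2ΔTM cells. IZH3 was not called (0.50 ± 0.08). YGL039W (chrVII:423961-425007), an aldehyde reductase gene, was at 401, 383 and 418 CPM in Mga2ΔTM cells, against 20.8, 20.2 and 22.2 CPM in mga2Δ cells and 34.0, 38.1 and 43.5 CPM in wild-type cells (4.25 ± 0.14 over mga2Δ, adjusted p 1.1e-13). In wild-type cells with the OLE1 plasmid, also grown in SDC-URA, IZH4 was at 3.48, 2.79 and 2.0 CPM, YGL039W at 31.8, 27.6 and 34.3 CPM and ELO1 at 64.4, 69.5 and 67.8 CPM. Those levels lay near or below wild-type and far below Mga2ΔTM cells.

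**Figure D2:**
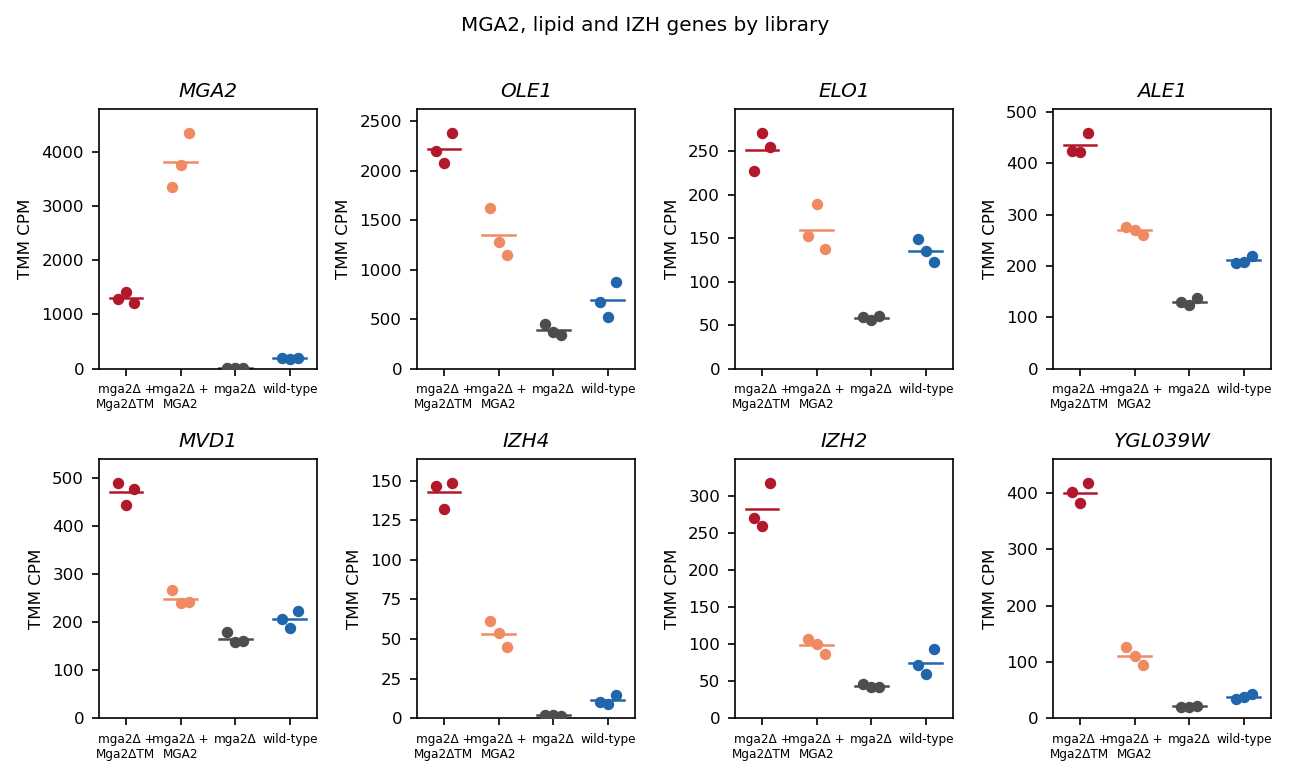
Levels (TMM CPM, linear axis from 0) of 8 genes in mga2Δ + Mga2ΔTM, mga2Δ + MGA2, mga2Δ and wild-type cells. Points are the 3 libraries of a strain and bars their mean, and the Mga2ΔTM libraries of OLE1, ELO1, ALE1, MVD1, IZH4, IZH2 and YGL039W lie above those of every other strain shown, while MGA2 mRNA is highest in mga2Δ + MGA2.

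A few storage lipid and phospholipid genes were called. Of 22 neutral lipid and lipid droplet genes, 3 rose and 1 fell, with a median log2 fold change of 0.01. Over all genes tested, 5.63% were higher and 7.27% lower. SPO7 rose by 0.73 ± 0.10 and NEM1, the catalytic subunit of the same phosphatase complex, by 0.66 ± 0.11 on the log2 scale (0.58 and not called without mga2Δ replicate 1), while PAH1, the enzyme they activate, was at 0.08 ± 0.09 and not called. ARE1, which makes sterol esters, rose by 0.70 ± 0.10. ARE2, the other sterol ester synthase, was at -0.55 ± 0.09 and did not reach the fold minimum, and the triacylglycerol synthases DGA1 (-0.03 ± 0.07) and LRO1 (0.02 ± 0.11) were not called. SCS3, a lipid droplet and phospholipid factor of the ER, fell (-0.82 ± 0.09). The seipin gene SEI1 was at 0.19 ± 0.09 and CDS1, the CDP-diacylglycerol synthase, at 0.19 ± 0.11, and neither was called.

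Of 18 genes of the CDP-diacylglycerol route, inositol and their regulators, 1 rose and 1 fell (5.63% and 7.27% of all genes tested did). HNM1, the choline permease, was at 379, 373 and 399 CPM in Mga2ΔTM cells, against 235, 196 and 205 CPM in mga2Δ cells (0.86 ± 0.08), and at 386, 338 and 361 CPM in wild-type cells. INO1, which makes inositol phosphate, was at 289, 249 and 304 CPM in Mga2ΔTM cells, against 615, 421 and 418 CPM in mga2Δ cells (-0.79 ± 0.26, adjusted p 0.025). That call was lost without Mga2ΔTM replicate 1 (adjusted p 0.0528 in edgeR), Mga2ΔTM replicate 2 (0.0798) or mga2Δ replicate 1 (0.107). CHO2 (-0.15 ± 0.11) and OPI3 (-0.14 ± 0.09), the methyltransferases that make phosphatidylcholine, were not called, and none of 6 Kennedy pathway genes was (1 higher and 1 lower at an unadjusted p below 0.05). In the sphingolipid list 3 of 25 genes rose and 3 fell, beside the same shares over all genes. ISC1, an inositol phosphosphingolipid phospholipase, LAC1, a ceramide synthase subunit, and AUR1, the inositol phosphorylceramide synthase, rose by 0.77, 0.62 and 0.62 on the log2 scale. ORM2, a brake on serine palmitoyltransferase, fell to 68.5, 73.5 and 70.8 CPM in Mga2ΔTM cells, against 121, 186 and 159 CPM in mga2Δ cells (-1.13 ± 0.20). Without mga2Δ replicate 2 or without mga2Δ replicate 3, 1 sphingolipid gene rose, and the calls for LAC1 and AUR1 were among those lost. LAC1 was not called without Mga2ΔTM replicate 3 either (0.56), nor AUR1 without Mga2ΔTM replicate 1 (0.57).

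The machinery that activates Mga2 was not called apart from MGA2. Of 11 genes, MGA2 was called and the others were not. SPT23, the relative of MGA2, was at 109, 109 and 110.3 CPM in Mga2ΔTM cells, against 126, 126 and 124 CPM in mga2Δ cells. The libraries did not overlap, but the log2 fold change of -0.20 ± 0.06 was below the fold minimum. The ligase gene RSP5 (-0.19 ± 0.05), NPL4, a cofactor of the Cdc48 segregase (-0.46 ± 0.07), and BUL2, an Rsp5 adaptor (0.53 ± 0.09), were also below it. Without mga2Δ replicate 1, 2 of the 11 genes were higher.

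Chaperones and folding enzymes of the ER were lower with Mga2ΔTM. Of 18 genes of the unfolded protein response and ER folding, 11 fell, none rose and the median log2 fold change was -0.77. KAR2 was at 815, 757 and 709 CPM in Mga2ΔTM cells, against 2903, 3457 and 3744 CPM in mga2Δ cells and 1198, 1504 and 1257 CPM in wild-type cells (-2.15 ± 0.10 against mga2Δ, adjusted p 1.1e-11). ERO1, the ER oxidase that drives disulfide formation, was at 115, 109.9 and 109 CPM in Mga2ΔTM cells, against 478, 561 and 602 CPM in mga2Δ cells (-2.30 ± 0.10). SIL1, a nucleotide exchange factor of Kar2, had 45.0, 45.2 and 41.3 CPM in Mga2ΔTM cells, against 166, 187 and 177 CPM in mga2Δ cells (-2.01 ± 0.07). In none of these genes did the libraries overlap. LHS1, another exchange factor of Kar2, and MPD1, a disulfide isomerase, fell too, with log2 fold changes of -1.33 ± 0.07 and -1.39 ± 0.10. The list had a median of -0.10 in Mga2ΔTM against wild-type cells, where none was higher (6.49% of all genes were) and 3 were lower (1.46%). It had a median of 0.68 in mga2Δ against wild-type cells, where 10 were higher (9.52%) and none was lower (2.38%). Both of these comparisons use the wild-type libraries. The count of 11 was the same without mga2Δ replicate 1. In the degradation list of the ER and inner nuclear membrane, 2 of 14 genes fell, DER1, a channel subunit of that pathway (-0.97 ± 0.13), and UBC7, its ubiquitin-conjugating enzyme (-0.69 ± 0.10).

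Heat shock chaperones of the cytosol and mitochondria and general stress genes were lower too. Of 25 heat shock genes 16 fell and none rose (median log2 fold change -0.87), and of 29 general stress genes 17 fell and none rose (median -0.92). SSA4, a stress-induced Hsp70, was at 86.9, 102 and 61.7 CPM in Mga2ΔTM cells, against 216, 518 and 524 CPM in mga2Δ cells (-2.33 ± 0.29). The lowest of the mga2Δ values is that of replicate 1. BTN2, which sorts misfolded proteins, was at 28.3, 32.9 and 31.3 CPM in Mga2ΔTM cells, against 81.1, 223 and 240.0 CPM in mga2Δ cells (-2.56 ± 0.45). HSP12 was at 467, 504 and 321 CPM in Mga2ΔTM cells, against 1436, 1732 and 1549.8 CPM in mga2Δ cells (-1.87 ± 0.23). ALD3, an aldehyde dehydrogenase gene, and GRE1, a hydrophilin gene, fell by 2.40 and 2.32 on the log2 scale. The mean log2 CPM over the general stress list was 6.44, 6.65 and 6.13 in Mga2ΔTM libraries, against 7.02, 7.57 and 7.51 in mga2Δ libraries and 5.84, 6.52 and 5.61 in wild-type libraries. Replicate 1 of mga2Δ was thus nearer to Mga2ΔTM cells than its companions. Over the heat shock list the means were 7.99, 8.05 and 7.86 in Mga2ΔTM libraries, against 8.46, 9.03 and 9.11 in mga2Δ libraries. Without replicate 1, 18 heat shock and 19 general stress genes fell. Against 1.5-fold itself as the null value, 6 and 9 fell.

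Other parts of protein quality control shifted less. Over all genes tested 5.63% were higher and 7.27% lower, and the proteasome count below lies near the share of lower genes. UBI4, the stress-induced polyubiquitin gene, fell (-0.84 ± 0.17), as did UBC8 (-0.67 ± 0.22) and DOA1 (-0.60 ± 0.11) of the 10 ubiquitin genes. Without Mga2ΔTM replicate 1, Mga2ΔTM replicate 3, mga2Δ replicate 2 or mga2Δ replicate 3 only 1 of these genes fell, and DOA1 (-0.57, -0.58, -0.50 and -0.58) and UBC8 (adjusted p 0.0742 to 0.124 in edgeR) were not called. Of 33 proteasome genes 2 fell, at a median of -0.38. The count was 7 without mga2Δ replicate 1, and 0 without Mga2ΔTM replicate 3, mga2Δ replicate 2 or mga2Δ replicate 3. Of 37 autophagy genes 7 fell and 1 rose, and 4 fell without Mga2ΔTM replicate 1 or mga2Δ replicate 2. ATG17, a scaffold of autophagosome initiation, fell by 1.26 and ATG8, the conjugated membrane protein of autophagosomes, by 0.89 on the log2 scale, while ATG22, a vacuolar amino acid exporter, rose by 1.03.

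**Figure D3:**
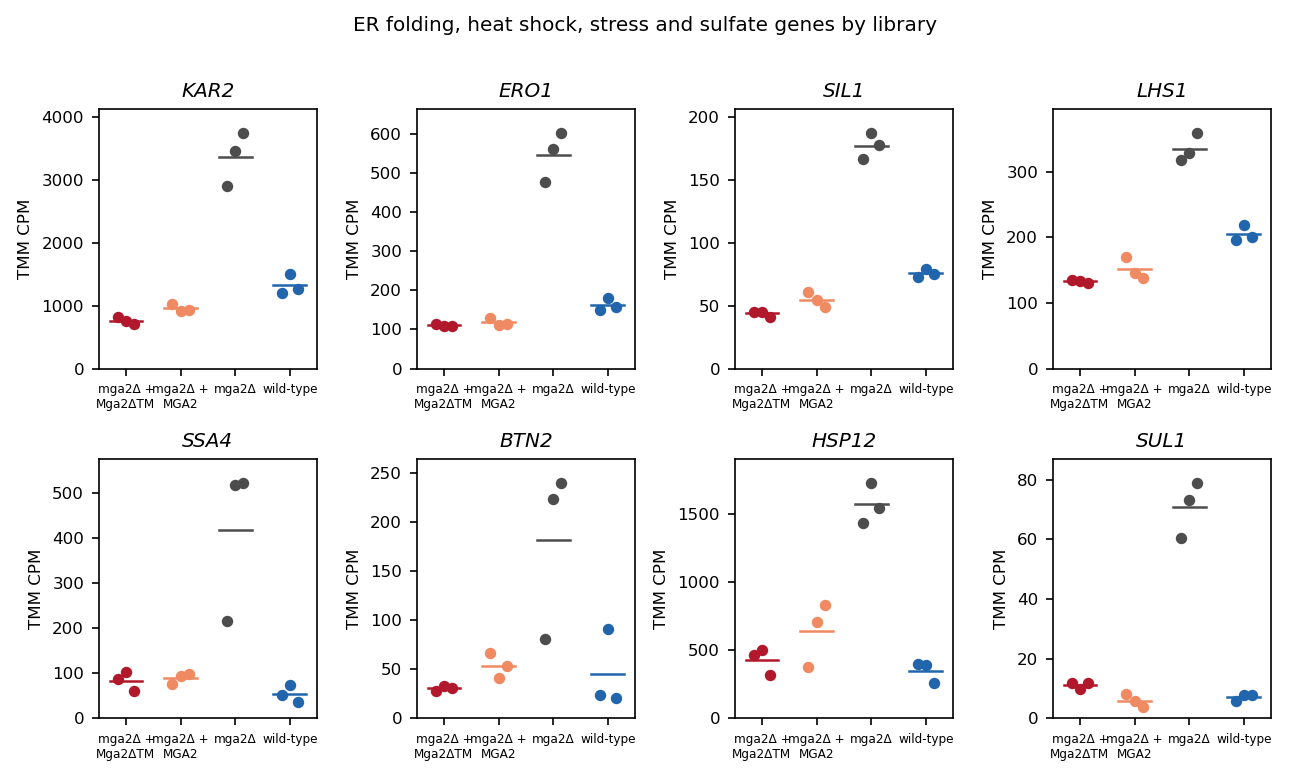
Levels (TMM CPM, linear axis from 0) of ER folding genes (KAR2, ERO1, SIL1, LHS1), heat shock genes (SSA4, BTN2), HSP12 and the sulfate permease gene SUL1. Points are the 3 libraries of a strain and bars their mean. The mga2Δ libraries lie above those of the other 3 strains in every panel but that of BTN2, where 1 wild-type library exceeds replicate 1 of mga2Δ, the leftmost of its points.

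Sulfur assimilation genes fell. Of 24 genes of sulfur assimilation and S-adenosylmethionine, 11 fell, none rose and the median log2 fold change was -0.52. SUL1 was at 11.7, 9.99 and 11.8 CPM in Mga2ΔTM cells, against 60.4, 73.1 and 78.9 CPM in mga2Δ cells and 5.82, 7.78 and 7.74 CPM in wild-type cells (-2.66 ± 0.22 against mga2Δ, adjusted p 5.8e-08). MET3, the ATP sulfurylase, was at 101, 98.2 and 99.8 CPM in Mga2ΔTM cells, against 227, 286 and 287 CPM in mga2Δ cells (-1.42 ± 0.14). MET14, which phosphorylates adenylyl sulfate, was lower at a log2 fold change of -1.49 ± 0.14. The Mga2ΔTM and mga2Δ libraries of these genes did not overlap. MET17, the gene that BY4741 lacks, stayed out of the test. Against 1.5-fold itself as the null value 4 of the 24 genes fell.

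Iron uptake genes rose. Of 28 genes of the iron regulon, which the factors Aft1 and Aft2 switch on when iron is scarce, 16 rose, none fell and the median log2 fold change was 0.77. FIT2, a cell wall mannoprotein that helps to retain siderophores, was at 91.4, 111 and 112 CPM in Mga2ΔTM cells, against 8.38, 9.25 and 7.73 CPM in mga2Δ cells and 22.8, 16.6 and 34.0 CPM in wild-type cells (3.63 ± 0.29 over mga2Δ). SIT1, a siderophore transporter, was at 245, 258 and 309 CPM in Mga2ΔTM cells, against 44.3, 29.7 and 32.7 CPM in mga2Δ cells (2.93 ± 0.24). FET3, the multicopper oxidase of high-affinity iron uptake, was at 866, 895 and 1007 CPM in Mga2ΔTM cells, against 203, 154 and 159 CPM in mga2Δ cells (2.42 ± 0.18). Its partner permease gene FTR1 rose by 1.27 ± 0.14 and the ferric reductase gene FRE3 by 1.43 ± 0.14 on the log2 scale. The mean log2 CPM of the list was 5.79, 5.92 and 6.04 in Mga2ΔTM libraries, against 4.91, 4.98 and 5.0 in mga2Δ libraries. It was 6.12, 6.23 and 6.35 in wild-type cells with the OLE1 plasmid, which also grew without uracil, and 5.19, 5.15 and 5.42 in wild-type cells without a plasmid. FIT2 itself was at 193, 229.7 and 219 CPM in the OLE1 plasmid cells, above its level in Mga2ΔTM cells. The part of plasmid and medium in these values was not tested. Without mga2Δ replicate 1, 15 iron genes rose.

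Genes under nitrogen catabolite repression, which GATA factors activate when preferred nitrogen sources run short, behaved likewise in their counts. Of 28 genes 16 rose, none fell and the median log2 fold change was 0.67. MEP2 was at 153, 155 and 145 CPM in Mga2ΔTM cells, against 24.4, 20.3 and 21.6 CPM in mga2Δ cells and 19.6, 18.9 and 20.9 CPM in wild-type cells (2.77 ± 0.13 over mga2Δ). GAP1, the general amino acid permease, was at 387, 357 and 309.7 CPM in Mga2ΔTM cells, against 72.1, 73.3 and 79.2 CPM in mga2Δ cells (2.23 ± 0.11). DAL80, a GATA repressor, was low in both but apart, at 5.4, 5.22 and 4.66 CPM in Mga2ΔTM cells, against 0.555, 0.841 and 0.535 CPM in mga2Δ cells (2.97 ± 0.23). PUT4, the proline permease, rose by 2.03 ± 0.14, and GDH2, the catabolic glutamate dehydrogenase, by 1.57 ± 0.12 on the log2 scale. The mean log2 CPM of the list was 5.53, 5.56 and 5.44 in Mga2ΔTM libraries, against 4.71, 4.75 and 4.74 in mga2Δ libraries. In the OLE1 plasmid cells it was 5.44, 5.41 and 5.38, and in wild-type cells 4.43, 4.53 and 4.45. MEP2 was at 126, 135 and 122 CPM in the OLE1 plasmid cells, so this list too was high in another strain with a plasmid in SDC-URA. The part of plasmid and medium was not tested here either.

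Of 17 genes of pyrimidine synthesis and uracil uptake, 4 rose and 2 fell (5.63% and 7.27% of all genes tested did). URA2, the enzyme of the first steps of the pathway, was at 4956, 4392 and 4687 CPM in Mga2ΔTM cells, against 2619.6, 1885 and 1893 CPM in mga2Δ cells (1.13 ± 0.12). FUI1, the uridine permease, rose by 1.31 ± 0.20 and FUR4, the uracil permease, by 1.08 ± 0.18 on the log2 scale. URA1, the dihydroorotate dehydrogenase, fell by 0.64 and URH1, a uridine nucleosidase, by 0.62. Uracil was absent from the medium of the Mga2ΔTM cells. Without mga2Δ replicate 1, 7 genes rose and 1 fell, and URA1 was not called (-0.53). Of 50 amino acid biosynthesis genes 6 rose and 1 fell, beside the same shares over all genes, and 12 rose without mga2Δ replicate 1. ARG3, an arginine synthesis gene, rose by 1.80 ± 0.30 and BAT2, a branched-chain aminotransferase, by 1.33 ± 0.08 on the log2 scale.

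In central metabolism, 5 of 17 tricarboxylic acid cycle genes rose, among them ACO1, aconitase (1.03 ± 0.09), and IDH1 (0.86 ± 0.11) and IDH2 (0.75 ± 0.09), the subunits of isocitrate dehydrogenase. None of 32 nuclear-encoded genes of the respiratory chain and ATP synthase was called (4 were higher and 4 lower at an unadjusted p below 0.05), and 2 fell without mga2Δ replicate 1. Over all genes tested 5.63% were higher and 7.27% lower. The counts of higher genes in the glucose-repressed and hexose transport lists lie near that share. In the glucose-repressed list 1 of 19 genes rose and 4 fell, and only 1 fell when Mga2ΔTM replicate 1, Mga2ΔTM replicate 3 or mga2Δ replicate 2 was left out. HXT5, a hexose transporter of slow growth, was at 22.6, 26.9 and 19.7 CPM in Mga2ΔTM cells, against 121, 182 and 178 CPM in mga2Δ cells and 6.0, 11.2 and 6.41 CPM in wild-type cells (-2.80 ± 0.29 against mga2Δ). Of 15 hexose transport genes 1 rose and 3 fell, and 5 fell without mga2Δ replicate 1. PDC5, a pyruvate decarboxylase, was at 67.5, 35.5 and 77.4 CPM in Mga2ΔTM cells, against 28.4, 27.0 and 30.2 CPM in mga2Δ cells (1.08 ± 0.22), with a wide spread in Mga2ΔTM cells.

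Smaller counts were found elsewhere. Over all genes tested 5.63% were higher and 7.27% lower, and several counts here and in the next paragraph lie near these shares. Peroxisomal fatty acid oxidation had 2 higher and 1 lower of 19 genes. CAT2, a carnitine acetyltransferase, rose by 0.84 and CTA1, the peroxisomal catalase, fell by 1.16 on the log2 scale. Of 9 zinc genes COT1, a vacuolar zinc transporter, rose (0.97 ± 0.08) and ADH4, an alcohol dehydrogenase, fell to 150.1, 162 and 166 CPM in Mga2ΔTM cells, against 756, 1076 and 1101 CPM in mga2Δ cells (-2.62 ± 0.67). ADH4 can vary widely within a strain, and was at 1079, 137 and 60.9 CPM in mga2Δ + MGA2 cells. Among 16 hypoxic and anaerobic genes 3 rose and 1 fell. DAN1, a cell wall mannoprotein of anaerobic growth, was low, at 2.23, 1.92 and 1.62 CPM in Mga2ΔTM cells, against 0.247, 0.240 and 0.0595 CPM in mga2Δ cells (3.35 ± 0.51), and at 16.8, 9.84 and 15.5 CPM in the OLE1 plasmid cells. Of 19 cell wall genes 4 fell, including CWP1, a mannoprotein (-1.59 ± 0.26), and GSC2, a glucan synthase (-1.43 ± 0.09). Of 14 phosphate genes 3 fell, of which PHM8, a lysophosphatidic acid and nucleotide phosphatase, was at 13.6, 15.7 and 15.1 CPM in Mga2ΔTM cells, against 64.7, 79.6 and 88.8 CPM in mga2Δ cells (-2.39 ± 0.28). Of 11 drug resistance genes 2 rose, among them the transporter gene PDR5 (0.74 ± 0.13), and 1 rose when Mga2ΔTM replicate 2, Mga2ΔTM replicate 3 or any mga2Δ library was left out.

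No gene was called among 36 genes of the nuclear pore and nuclear membrane, 137 cytosolic ribosomal proteins (median log2 fold change 0.11) or 66 mitochondrial ribosomal proteins (-0.14). None of 34 ribosome assembly genes was called either (0.31), but 17 rose without mga2Δ replicate 1. Over all 6164 genes, 1013 were higher and 1079 lower at an adjusted p below 0.05 in edgeR with no fold minimum. An unadjusted p below 0.05 was reached by at least as many. At that unadjusted threshold, 11 genes of the nuclear pore list were higher and 3 lower, as were 5 and 2 cytosolic ribosomal proteins, 2 and 21 mitochondrial ribosomal proteins, and 2 and 0 ribosome assembly genes. With limma-voom and DESeq2 none of these lists had a called gene. Of 6 MATa genes 4 rose, such as AGA2, an agglutinin subunit (1.21 ± 0.16), and STE2, the receptor of the opposite pheromone (1.14 ± 0.16), and none of 4 MATα genes was called (1 higher at an unadjusted p below 0.05). Of 18 oxidative stress genes 2 fell, of 20 glycolytic and fermentation genes 1 rose and 2 fell, of 29 peroxin genes 2 rose, of 6 seripauperin genes, which are near-identical, 2 rose (1 without Mga2ΔTM replicate 1, mga2Δ replicate 1 or mga2Δ replicate 3), and of 8 mitochondrially encoded genes COB fell (-0.63 ± 0.14).

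**Figure D4:**
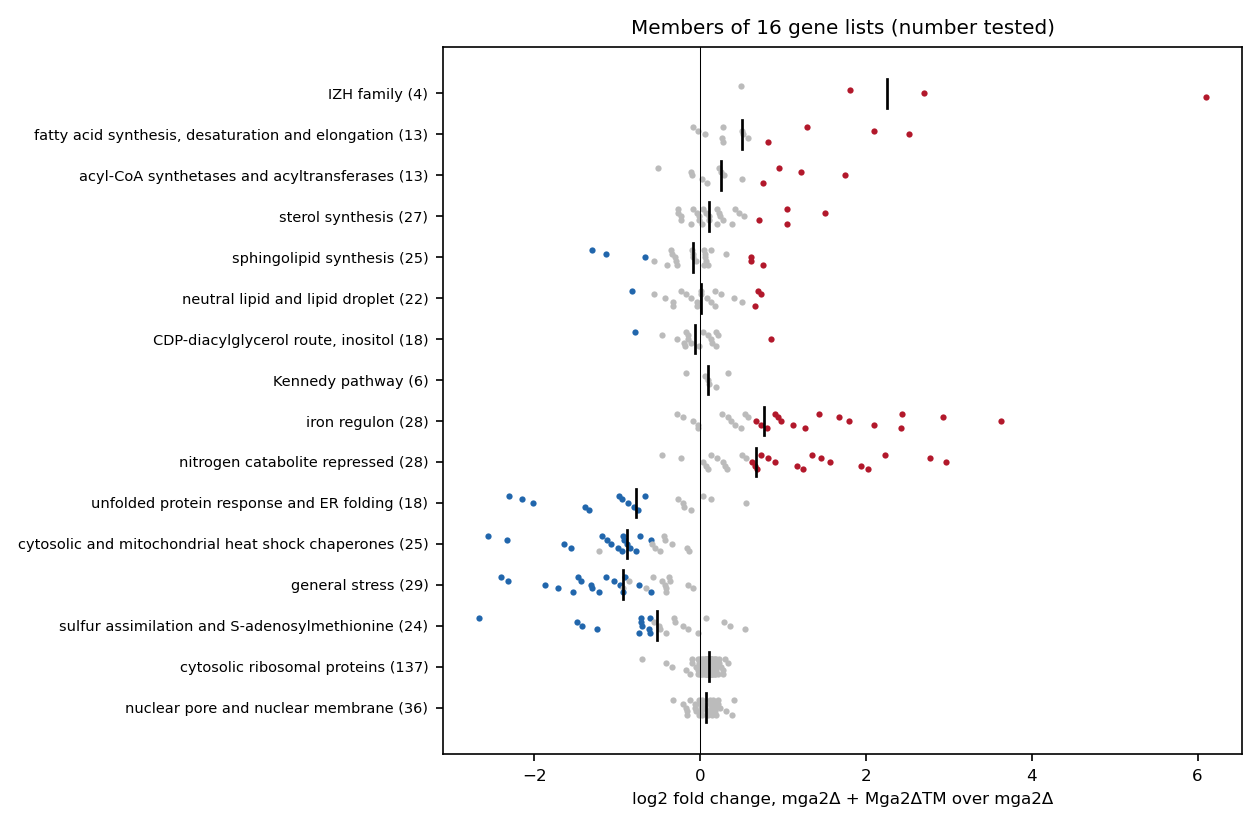
The log2 fold change of Mga2ΔTM over mga2Δ cells for the tested members of 16 gene lists, 1 point a gene. Red points were called higher, blue points lower and grey points not called, and the black line is the median of the list. The IZH, iron and nitrogen lists lie to the right of 0, and the ER folding, heat shock, general stress and sulfur lists to the left.

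The genes with the largest changes came from many lists and 607 of the 795 called genes were in none. Beside those above, HES1, a sterol-binding protein of the oxysterol-binding family, was at 28.1, 33.8 and 25.6 CPM in Mga2ΔTM cells, against 3.95, 3.60 and 4.34 CPM in mga2Δ cells (2.88 ± 0.16). COS12, a member of a subtelomeric family, was at 16.3, 16.8 and 17.9 CPM in Mga2ΔTM cells, against 2.90, 1.08 and 1.55 CPM in mga2Δ cells (3.20 ± 0.27). CDA1, a chitin deacetylase of spores, was at 5.33, 5.68 and 3.39 CPM in Mga2ΔTM cells, against 0.431, 0.781 and 0.833 CPM in mga2Δ cells (2.80 ± 0.31). The COS genes are alike in sequence, so the counting of COS12 is uncertain. Among lower genes, YPT53, a Rab GTPase of endocytosis, was at 0.674, 1.46 and 0.777 CPM in Mga2ΔTM cells, against 4.19, 9.79 and 8.68 CPM in mga2Δ cells (-2.97 ± 0.46). RTC3 was at 37.7, 47.3 and 29.7 CPM in Mga2ΔTM cells, against 166, 315 and 335 CPM in mga2Δ cells (-2.83 ± 0.39), and again replicate 1 was the lowest of the mga2Δ libraries. ROQ1, which redirects a ubiquitin ligase under stress, BAG7, a GTPase-activating protein of Rho1, RTA1, a membrane protein tied to aminocholesterol resistance, and YET2, a homologue of a mammalian ER membrane protein, fell by 2.60, 2.57, 2.5 and 2.54 on the log2 scale. Of the remaining genes with the largest decreases, YLR349W and YFL013W-A are identifiers for which no role is given here.

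In the comparison with mga2Δ + MGA2 the kind of plasmid, the promoter, the tag and the medium were the same by the labels, and the version of Mga2 differed, as did the level of plasmid transcripts. Here 159 genes were higher in Mga2ΔTM cells (2.58% of 6164) and 51 were lower (0.827%). MGA2 mRNA was lower, at 1292, 1413 and 1204 CPM in Mga2ΔTM cells, against 3355, 3757 and 4349 CPM in mga2Δ + MGA2 cells (log2 fold change -1.55 ± 0.11), and so was that of the plasmid marker URA3, at 229, 254 and 285 CPM against 742, 779 and 797 CPM (-1.59 ± 0.12). The Mga2ΔTM reading frame lacks the part for the membrane anchor, so its MGA2 counts come from a shorter sequence. OLE1 was at 2199, 2075 and 2382 CPM in Mga2ΔTM cells, against 1619, 1279.8 and 1144 CPM in mga2Δ + MGA2 cells (0.72 ± 0.18, adjusted p 0.015 in edgeR). That call was lost without Mga2ΔTM replicate 3 (adjusted p 0.0568 in edgeR), mga2Δ + MGA2 replicate 2 (0.0564) or mga2Δ + MGA2 replicate 3 (0.0866). IZH4 was at 146, 132 and 149 CPM in Mga2ΔTM cells, against 61.4, 54.0 and 45.0 CPM in mga2Δ + MGA2 cells (1.41 ± 0.15). YGL039W was at 401, 383 and 418 CPM in Mga2ΔTM cells, against 126, 111 and 93.8 CPM in mga2Δ + MGA2 cells (1.86 ± 0.13). These genes were thus higher in Mga2ΔTM cells although the plasmid transcript was lower.

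Other lipid genes differed between these strains too, most of them higher. ELO1 (0.65 ± 0.11), ACB1 (0.78 ± 0.09), ALE1 (0.69 ± 0.06), FAA4 (0.83 ± 0.13), ICT1 (0.87 ± 0.09), MVD1 (0.91 ± 0.08) and IZH2 (1.52 ± 0.13) were higher in Mga2ΔTM than in mga2Δ + MGA2 cells. Without mga2Δ + MGA2 replicate 3, ELO1 was at 0.55 and not called. FAA1, an acyl-CoA synthetase gene (-0.67 ± 0.09), INO1 (-0.98 ± 0.26) and YPC1, an alkaline ceramidase gene (-0.70 ± 0.21), were called lower in Mga2ΔTM cells. FAA1 and YPC1 were picked after their values were seen. The INO1 call was lost without Mga2ΔTM replicate 1 (adjusted p 0.0529 in edgeR), Mga2ΔTM replicate 2 (0.0911) or mga2Δ + MGA2 replicate 1 (0.123), and no sphingolipid gene was lower when any 1 of the Mga2ΔTM libraries or mga2Δ + MGA2 replicate 3 was left out. Against 1.5-fold itself as the null value 32 genes were higher and 6 lower, and OLE1, ELO1, ACB1, ALE1, FAA4 and ICT1 were not among them. HES1 was at 28.1, 33.8 and 25.6 CPM in Mga2ΔTM cells, against 5.86, 6.44 and 4.33 CPM in mga2Δ + MGA2 cells (2.39 ± 0.15). FHN1, a membrane protein related to the eisosome component Nce102, was at 32.0, 31.2 and 34.0 CPM in Mga2ΔTM cells, against 7.36, 8.25 and 6.32 CPM in mga2Δ + MGA2 cells (2.15 ± 0.15). CSS1, which encodes a secreted protein, was at 17.6, 16.1 and 16.4 CPM in Mga2ΔTM cells, against 3.21, 1.88 and 2.63 CPM in mga2Δ + MGA2 cells (2.70 ± 0.23). YAT1, the mitochondrial carnitine acetyltransferase, was higher by 1.80 ± 0.24 on the log2 scale. None of the 18 ER folding genes and none of the 25 heat shock genes was called between these strains, with medians of -0.004 and -0.02 (at an unadjusted p below 0.05 in edgeR, 3 and 2 were higher and 4 and 3 lower, and limma-voom and DESeq2 also called none). Of the heat shock genes, 2 were higher without Mga2ΔTM replicate 3, and 1 was higher and 1 lower without mga2Δ + MGA2 replicate 2. General stress genes differed more, with 3 of 29 lower in Mga2ΔTM cells (0.827% of all genes tested were), none higher and a median of -0.45. For KAR2 the levels were 815, 757 and 709 CPM in Mga2ΔTM cells and 1031, 922 and 938 CPM in mga2Δ + MGA2 cells (-0.34 ± 0.10, adjusted p 0.027), which did not overlap but missed the call.

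Iron and nitrogen genes were called between these strains as well, at 6 of 28 and 8 of 28 higher. The iron count was 3 without Mga2ΔTM replicate 2, Mga2ΔTM replicate 3 or mga2Δ + MGA2 replicate 3, and the nitrogen count was 5 without mga2Δ + MGA2 replicate 3. MEP2 was at 153, 155 and 145 CPM in Mga2ΔTM cells, against 74.0, 80.8 and 61.8 CPM in mga2Δ + MGA2 cells (1.06 ± 0.12), and GAP1 was higher by 0.95 ± 0.11 on the log2 scale. Of the 24 sulfur genes 7 were higher in Mga2ΔTM than in mga2Δ + MGA2 cells. Against 1.5-fold itself as the null value, 0 iron, 2 nitrogen and 0 sulfur genes were higher. Of the 17 pyrimidine genes none was called between these strains (6 were higher and 1 lower at an unadjusted p below 0.05 in edgeR). URA1 (0.55 ± 0.09), URA2 (0.50 ± 0.12) and URA10 (0.40 ± 0.11) were higher in Mga2ΔTM cells at an adjusted p below 0.05 but missed the fold minimum. Among the lower genes, HXT7, a high-affinity hexose transporter with a near-identical copy in HXT6, was at 45.3, 44.0 and 26.7 CPM in Mga2ΔTM cells, against 96.2, 129 and 215 CPM in mga2Δ + MGA2 cells (-1.93 ± 0.37). None of 137 cytosolic ribosomal proteins was called, at a median of -0.29. At an unadjusted p below 0.05 in edgeR, 116 of them were lower and 0 higher. Of 32 nuclear-encoded respiratory chain and ATP synthase genes 4 were lower (0.827% of all genes tested were), with a median of -0.43.

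The same plasmid was also put into ino4Δ cells, which lack a subunit of the Ino2-Ino4 activator of phospholipid genes and keep the chromosomal MGA2. With Mga2ΔTM, 265 genes were higher (4.30%) and 318 lower (5.16%) than in ino4Δ cells without a plasmid. The medium and plasmid differed in the same way as between the mga2Δ strains, so the difference between the changes in the 2 backgrounds was tested as an interaction. The change was more positive in mga2Δ than in ino4Δ cells for 117 genes (1.90%) and more negative for 86 genes (1.40%). For MGA2 the change in mga2Δ cells was larger by 8.05 ± 0.22, where ino4Δ cells started from the chromosomal copy. These counts moved with single libraries, to 77 more positive genes without ino4Δ + Mga2ΔTM replicate 2, and to 184 and 200 more negative genes without mga2Δ replicate 1 and without ino4Δ + Mga2ΔTM replicate 1. MGA2 had 35368, 29017 and 32378 counts in ino4Δ + Mga2ΔTM libraries, against 19155, 18388 and 17037 in mga2Δ + Mga2ΔTM libraries. In ino4Δ libraries without the plasmid it had 3619, 3486 and 3585. The level of MGA2 mRNA thus differed between the strains with the plasmid, and its part in the interaction was not tested.

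OLE1 was at 2720.2, 1881 and 2239 CPM in ino4Δ + Mga2ΔTM cells, against 967, 970.2 and 708 CPM in ino4Δ cells, a log2 fold change of 1.37 ± 0.18, beside 2.52 ± 0.19 in mga2Δ cells. The difference of 1.15 ± 0.25 was called (adjusted p 0.011). The end levels in both strains with Mga2ΔTM overlapped, while mga2Δ cells had less OLE1 mRNA than ino4Δ cells. ELO1 (0.96 ± 0.16), MVD1 (0.80 ± 0.11), IZH2 (1.22 ± 0.19) and IZH4 (3.35 ± 0.27) also changed more in mga2Δ cells. For IZH4 the levels were 134, 108 and 106 CPM in ino4Δ + Mga2ΔTM cells and 15.6, 20.02 and 16.1 CPM in ino4Δ cells. YGL039W changed by 3.43 ± 0.14 in ino4Δ cells and by 4.25 ± 0.14 in mga2Δ cells, a difference of 0.82 ± 0.18 that was called. ALE1 (0.48 ± 0.08), FAA4 (0.29 ± 0.19) and SLC1 (-0.27 ± 0.14) were not called in this test. Against 1.5-fold itself as the null value, 14 genes changed more positively and 8 more negatively in mga2Δ cells, and OLE1, ELO1, MVD1, IZH2 and YGL039W were not among them.

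Of the 18 ER folding genes 6 had a more negative change in mga2Δ than in ino4Δ cells. KAR2 was at 1099.9, 1016 and 966 CPM in ino4Δ + Mga2ΔTM cells, against 2109, 2004 and 2118 CPM in ino4Δ cells (-1.02 ± 0.10), and the difference from the change in mga2Δ cells was -1.13 ± 0.14. ERO1 (-1.26 ± 0.14) and SIL1 (-1.11 ± 0.10) fell more in mga2Δ cells too. Of 28 nitrogen genes 11 had a more positive change in mga2Δ cells. PUT4 was at 19.3, 17.2 and 19 CPM in ino4Δ + Mga2ΔTM cells and 22.3, 23.9 and 22.2 CPM in ino4Δ cells (-0.30 ± 0.13), so the difference was 2.33 ± 0.19. DAL80 was at 5.89, 4.73 and 5.82 CPM in ino4Δ + Mga2ΔTM cells and 3.25, 3.34 and 4.52 CPM in ino4Δ cells, with a difference of 2.41 ± 0.29. In both genes ino4Δ cells had more mRNA than mga2Δ cells before the plasmid was added. Against 1.5-fold itself as the null value, 3 ER folding and 3 nitrogen genes differed between the backgrounds. Of the 29 general stress genes 17 fell in ino4Δ cells as well.

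**Figure D5:**
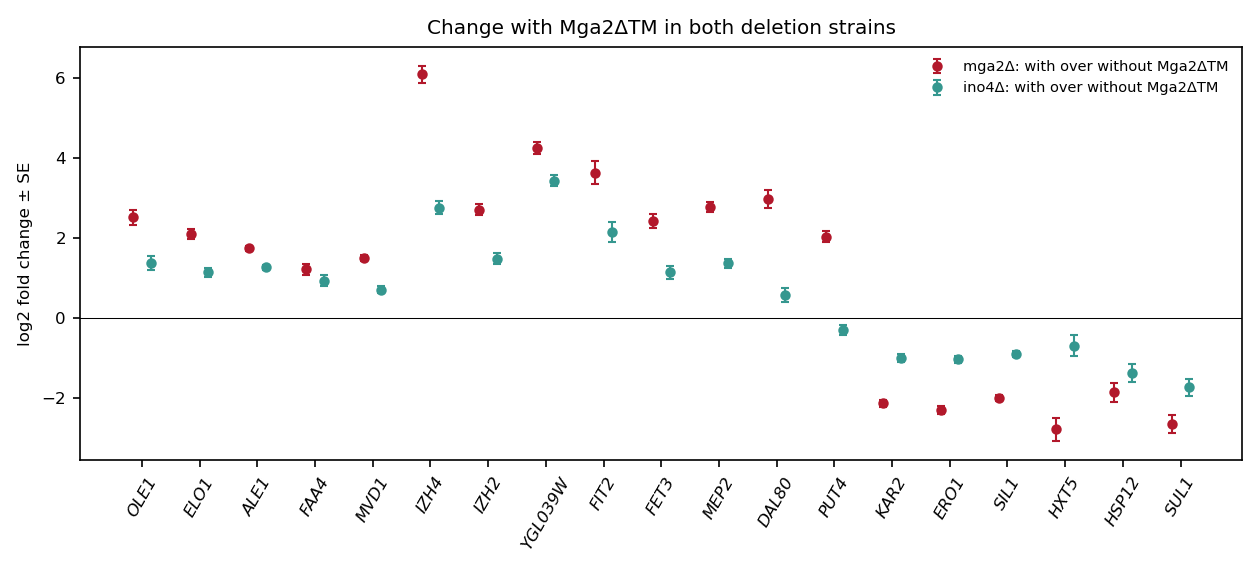
The log2 fold change (y axis, ± SE) of 19 genes on expression of Mga2ΔTM, in mga2Δ cells (red) and in ino4Δ cells (green), 3 libraries a strain. The changes of IZH4, DAL80 and PUT4 are more positive and those of KAR2, ERO1 and SIL1 more negative in mga2Δ cells (PUT4 and DAL80 were not called in ino4Δ cells), while the ALE1 and FAA4 differences between the backgrounds were not called.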

How the data were processed

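RNA from exponentially growing cells was depleted of rRNA and sequenced. The authors used STAR 2.5.1b (genome R64-1-1) for alignment and HTSeq 0.5.4p3 for counting, and deposited raw counts per gene, which were used here. The HTSeq strand setting is not given in the sources used here, so genes that overlap on opposite strands are uncertain. A deposited table of normalized values was not used. Of 7126 lines, 4 had no gene, and 6045 of 7122 identifiers matched the RefSeq R64 annotation. No column was left unmapped (0).

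All 21 libraries were scaled by TMM and fitted together with 1 mean per strain (edgeR 4.0.16 robust quasi-likelihood, R 4.3.3), after filterByExpr (minimum count 10, minimum total 15). Calls needed more than 1.5-fold at an adjusted p (Benjamini-Hochberg) below 0.05. SE is the absolute log2 fold change divided by the square root of F. Alternatives were limma-voom (limma 3.58.1), DESeq2 1.42.0, glmTreat, RLE size factors, library totals, other filters, the strains compared alone, a replicate block and leaving out each library. The 6 libraries and 42 gene lists were chosen with earlier results of these data known. Named genes are the engineered genes, genes that the paper names, up to 5 members a list by smallest adjusted p, the 15 largest changes in each direction against mga2Δ, the 10 largest against mga2Δ + MGA2 and the 5 largest background differences. The largest changes needed an average of 10 counts per library. The calling step was tested on simulated data.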

Additional observations from a re-analysis of the deposited data

Results flagged for a closer look

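The following 10 genes are those with the 5 largest differences in each direction, among genes called with a mean of 10 or more counts per library, between the change on Mga2ΔTM expression in mga2Δ cells and that in ino4Δ cells, in the interaction term of the edgeR fit, as log2 values of the mga2Δ change minus the ino4Δ change. MGA2 differed by 8.05, with the chromosomal copy present in ino4Δ cells. IZH4 differed by 3.35, CDA1 by 2.64 and the pseudogene YIR043C by 2.58. PRM6, a potassium transport gene of the pheromone response, differed by 3.59, but had 1, 1 and 2 counts in the mga2Δ libraries, so this fitted value depends on the prior count. On the other side HXT5 differed by -2.10, RTA1 by -1.94, YDR209C by -1.99, MNC1 by -1.80 and YNL042W-B by -1.80. HXT5 was at 22.6, 26.9 and 19.7 CPM in mga2Δ + Mga2ΔTM cells, against 121, 182 and 178 CPM in mga2Δ cells, while it was at 119, 109.9 and 89.6 CPM in ino4Δ + Mga2ΔTM cells, against 191, 151 and 175 CPM in ino4Δ cells. The calls for YIR043C, YDR209C, MNC1 and YNL042W-B were each lost in at least 1 setting that left out a library.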

How the results depend on the processing

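No named gene that was called in the main fit or in an alternative changed direction between them. Directions of genes called in neither were not compared. Of the 143 named genes that were called against mga2Δ, 95 kept the call in each of 16 settings and 48 lost it in at least 1, which was glmTreat for all 48. glmTreat, a test against 1.5-fold itself, called 157 genes higher and 147 lower than mga2Δ, 32 higher and 6 lower than mga2Δ + MGA2, and 14 more positive and 8 more negative changes in mga2Δ than in ino4Δ cells. With no fold minimum these counts were 1013 and 1079, 343 and 276, and 212 and 179. The other tools, scalings and filters left these counts within 1.5 times. Leaving out 1 library gave 298 to 488 genes higher and 358 to 564 lower than mga2Δ, 124 to 142 higher and 37 to 71 lower than mga2Δ + MGA2, and 77 to 171 more positive and 59 to 200 more negative changes in mga2Δ than in ino4Δ cells. The value of 77 came without ino4Δ + Mga2ΔTM replicate 2, and 200 and 184 without ino4Δ + Mga2ΔTM replicate 1 and mga2Δ replicate 1. The cause was not tested. Replicate numbers were not used as pairs in the main fit. Deviations of Mga2ΔTM and mga2Δ libraries with the same number correlated at 0.356, 0.523 and -0.19. Those with different numbers correlated at -0.593 to 0.407. So few libraries a strain cannot decide whether the numbers pair them. With the replicate number as a block, 352 genes were higher and 435 lower than mga2Δ, 155 higher and 45 lower than mga2Δ + MGA2, and 125 changes were more positive and 88 more negative in mga2Δ cells. Genes with few counts, such as DAN1 and PRM6, are limited by depth.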

Other observations

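Of 37 tested Ty retrotransposon genes, 23 were called higher and 2 lower in Mga2ΔTM than in mga2Δ cells. This set was formed after the values were seen, and its members are near-identical copies among which reads cannot be assigned with certainty, so they are not independent. YNL284C-B was at 82.5, 73.0 and 60.8 CPM in Mga2ΔTM cells, against 8.75, 6.37 and 7.37 CPM in mga2Δ cells, and YGR161C-D was at 7.15, 7.68 and 7.13 CPM, against 1.29, 0.721 and 1.07 CPM. YDR210W-B went the other way, at 3.10, 2.69 and 2.68 CPM in Mga2ΔTM cells, against 17.8, 18.6 and 18.6 CPM in mga2Δ cells.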
